A study of Mus musculus with 20 samples.

Results

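Senescence is a lasting arrest of cell division, and its transcript markers are mostly inhibitors of the cyclin-dependent kinases (CDKs). The 10 genes described here were set by name: the CDK inhibitors Cdkn1a, Cdkn1b, Cdkn2a, Cdkn2b, Cdkn2c and Cdkn2d, the p53 gene Trp53 with its antagonist Mdm2, the retinoblastoma gene Rb1 and the lamin B1 gene Lmnb1. All 10 were found among the 51789 genes of the deposited table, and all 10 were among the 16383 tested, which reached 1 FPKM in 5 or more of the 20 libraries. FPKM, fragments per kilobase of transcript scaled to sequencing depth, allows for the length of a gene and the size of a library. Values below are FPKM after a further scaling between libraries ("scaled FPKM").

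RNA came from the intervertebral disc of BL6 mice aged 24 months, either from nucleus pulposus (NP, the soft core of the disc) or from annulus fibrosus (AF, its outer fibrous ring). All mice were injected intraperitoneally each week from 18 months of age for 6 months. The vehicle group received DMSO, and the other group received MDL-800, a small-molecule activator of the deacylase SIRT6, in the same amount of DMSO, so every group carried DMSO and no untreated or young mice were analysed here. The MDL-800 dose is not given in the sources used here. The 4 groups of 5 libraries were NP vehicle (libraries 1, 2, 3, 5 and 6), NP MDL-800 (15, 18, 19, 20 and 22), AF vehicle (8, 9, 10, 12 and 13) and AF MDL-800 (25, 27, 28, 29 and 30). The labels speak of primary cells, whereas the protocol describes tissue dissected under a microscope, and they do not say whether libraries are separate mice. If libraries of a group share a mouse, p-values measure only the spread between these samples, which may be technical.

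CDK inhibitors form a pair of families. The CIP/KIP proteins p21 (Cdkn1a) and p27 (Cdkn1b) bind CDK complexes broadly, and the INK4 proteins p16 (Cdkn2a), p15 (Cdkn2b), p18 (Cdkn2c) and p19 (Cdkn2d) bind CDK4 and CDK6 and keep cyclin D off them. With these kinases held back, the retinoblastoma protein stays bound to E2F factors and the genes of DNA replication stay silent. p53 drives Cdkn1a after damage, and Mdm2, itself a p53 target, marks p53 for degradation. Lamin B1, a filament under the nuclear envelope, is known to be lost in senescent cells, and in the disc p16 is the marker of senescence most often used.

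Estimated depth was 12.7 to 22.3 megafragments per library. The tissue labels were checked against marker genes. Brachyury (gene T), the defining transcription factor of notochord-derived NP cells, lay between 1193 and 2328 scaled FPKM in NP libraries and between 112.5 and 624.3 in AF libraries. Within NP, T was at 1193 to 1701 in vehicle and 1780 to 2328 under MDL-800, Krt19 at 640.4 to 1442 and 1689 to 2355, and Krt8 at 749.7 to 882.5 and 925.8 to 1243, so these 3 NP keratin and notochord genes did not overlap between treatments. Of all genes tested, 4.50% did not overlap between treatments in NP. These 3 belong to a list of 10 NP markers, and the others are not given singly here, so the 3 do not stand for the list. The mean over all 10 NP markers differed by 0.13 (exact two-sided permutation test, p = 0.0952, adjusted 0.1758). Tnmd, a tendon and outer annulus gene, lay between 0 and 2.97 in NP and between 20.8 and 94.2 in AF. Every list of markers of other cells was lower in NP than in AF: the 18 genes of cycling cells summed to 119.2 to 273.6 scaled FPKM in NP libraries and to 507.3 to 1615 in AF libraries, 8 red cell genes to 29.8 to 217.4 against 618.9 to 3304, and 9 neutrophil genes to 208.6 to 3305 against 6449 to 35090. No gene of these 3 lists was at 0 in all libraries of a group. The mean log2 level of the cycling list was lower in NP, with differences of -2.33 in vehicle and -2.61 under MDL-800 (exact two-sided permutation test, p = 0.0079 each, the smallest that 5 against 5 allows; 0.0165 adjusted over 48 such tests). AF vehicle library 12 (4.52) and AF MDL-800 library 27 (4.56) had the lowest cycling level among AF libraries and AF MDL-800 library 30 (6.22) the highest, and NP vehicle library 6 (3.67) had the highest among NP libraries. Each result was therefore refitted without every library in turn. In bulk RNA, fewer cells of a type and less RNA per cell cannot be told apart.

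The promoters of the Ink4 locus and of Cdkn2d are shown because these neighbouring or related genes had very different levels in the disc. Cdkn2a and Cdkn2b lie side by side on the minus strand of chromosome 4. Cdkn2a has a start for p16Ink4a and another, upstream, for p19Arf, an inhibitor of Mdm2 read in another frame. The windows reach from 250 bases before to 50 bases after the start, 5′ to 3′ on the gene's strand, from RefSeq on GRCm38.p6, which gave 11 windows for 8 of the 10 genes. Capitals mark TTTCCCGC (an E2F-type site), GGGCGG (a GC box, the Sp1 motif) and TGACGTCA (a cyclic AMP response element), searched on both strands, and no match overlaps another.
Cdkn2a, p19Arf start, chr4:89294570-89294869: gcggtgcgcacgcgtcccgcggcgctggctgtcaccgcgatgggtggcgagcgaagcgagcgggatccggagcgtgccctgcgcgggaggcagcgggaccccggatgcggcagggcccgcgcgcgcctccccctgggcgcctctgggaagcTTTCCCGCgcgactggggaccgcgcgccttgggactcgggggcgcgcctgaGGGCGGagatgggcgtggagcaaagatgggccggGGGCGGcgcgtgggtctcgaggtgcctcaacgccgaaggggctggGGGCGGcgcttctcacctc
Cdkn2a, p16Ink4a start, chr4:89282143-89282442: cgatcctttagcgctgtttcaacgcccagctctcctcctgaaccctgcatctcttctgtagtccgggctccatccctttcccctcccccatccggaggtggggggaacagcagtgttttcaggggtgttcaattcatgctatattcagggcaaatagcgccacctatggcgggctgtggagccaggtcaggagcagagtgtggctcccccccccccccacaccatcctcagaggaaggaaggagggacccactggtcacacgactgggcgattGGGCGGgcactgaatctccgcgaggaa
Cdkn2b, chr4:89310983-89311282: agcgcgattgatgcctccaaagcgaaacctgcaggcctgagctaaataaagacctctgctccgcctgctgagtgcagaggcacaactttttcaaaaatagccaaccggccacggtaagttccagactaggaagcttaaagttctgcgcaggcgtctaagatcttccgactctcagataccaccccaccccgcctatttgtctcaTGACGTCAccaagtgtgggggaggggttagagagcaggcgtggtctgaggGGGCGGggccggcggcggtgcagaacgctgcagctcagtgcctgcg
Cdkn2d, chr9:21291160-21291459: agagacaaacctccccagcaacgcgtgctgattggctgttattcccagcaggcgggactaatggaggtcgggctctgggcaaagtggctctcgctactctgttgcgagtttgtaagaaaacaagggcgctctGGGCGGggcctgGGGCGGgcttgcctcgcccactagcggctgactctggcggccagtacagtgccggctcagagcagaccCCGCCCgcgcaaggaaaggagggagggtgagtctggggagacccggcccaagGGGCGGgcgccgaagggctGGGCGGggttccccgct
The p19Arf window held an E2F-type site at position -99 from the start and 3 GC boxes, and the p16Ink4a window held 1 GC box. The Cdkn2b window held a cyclic AMP element at -46 and 1 GC box, and the Cdkn2d window held 5 GC boxes. The windows of Cdkn2c, the remaining INK4 gene, are not printed and held 4 and 0 GC boxes. Among 32851 promoter windows of the same length, 1.1% held the E2F-type site, 35.7% a GC box and 1.8% the cyclic AMP element. These matches describe the letters only.

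**Figure D1:**
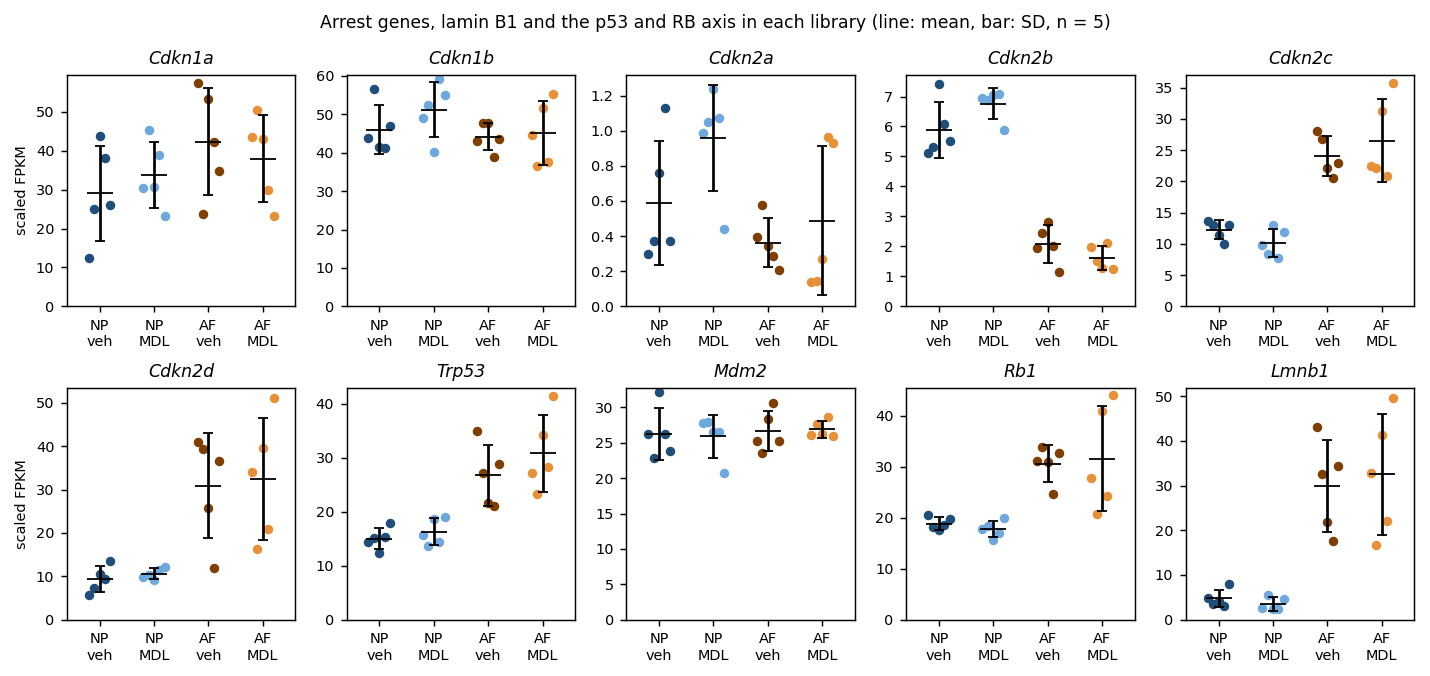
Scaled FPKM (y axes, each from 0) of the 10 genes in NP and AF libraries of vehicle (veh) and MDL-800 (MDL) mice. Points are libraries, horizontal lines are group means and bars are SD with n = 5. Lmnb1, Cdkn2c, Trp53 and Rb1 separated NP (low) from AF (high), Cdkn2b did the reverse, and the treatments overlapped in every panel.

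Between the tissues of vehicle mice, 6 of the 10 genes differed by limma, fitted on log2(scaled FPKM + 1) with Benjamini-Hochberg adjustment over all 16383 genes and called at an adjusted p under 0.05. Cdkn2b was higher in NP, and Lmnb1, Cdkn2d, Cdkn2c, Trp53 and Rb1 were lower. The same 6 genes were called in the same directions under MDL-800. The tissues differ widely: 55.7% of all genes tested were called in vehicle (21.8% higher and 33.9% lower in NP) and 62.8% under MDL-800 (25.6% higher and 37.2% lower), so 6 of 10 is close to what the whole table shows. The median log2 difference of the 10 genes was -0.62 in vehicle and -0.44 under MDL-800, beside -0.08 over all genes in both. Quantile normalization moved the median gene from -0.08 to 0.19 and removal of each library's GC trend moved it to 0.23, in either treatment. The split of higher and lower calls was then 6309 to 4197 (quantile) and 6749 to 3963 (GC) in vehicle, in place of 3577 to 5550, and 6805 to 4544 and 7206 to 4279 under MDL-800, in place of 4188 to 6102. The directions of the 6 called genes held in all of these fits.

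Lmnb1 (ENSMUSG00000024590, chromosome 18, 56707813 to 56753424) showed the widest gap. NP vehicle libraries 1, 2, 3, 5 and 6 held 4.96, 3.42, 4.27, 3.14 and 8.03 scaled FPKM, and NP MDL-800 libraries 15, 18, 19, 20 and 22 held 2.61, 5.48, 2.47, 2.30 and 4.67. Across AF vehicle libraries 8, 9, 10, 12 and 13 the values were 43.1, 32.6, 21.9, 17.5 and 34.3, and across AF MDL-800 libraries 25, 27, 28, 29 and 30 they were 32.9, 16.8, 41.3, 22.0 and 49.5. Every AF library was above every NP library, while libraries of 1 group spread by more than a factor of 2 in each of the 4 groups. The means were 4.76 ± 1.96 in NP and 29.9 ± 10.3 in AF in vehicle (SD, n = 5), 6.27-fold higher in AF. Under MDL-800 they were 3.51 ± 1.47 and 32.5 ± 13.5, 9.28-fold higher in AF. The log2 difference, NP minus AF, was -2.41 in vehicle (95% interval -3.01 to -1.82; limma adjusted p = 4.26e-05) and -2.85 under MDL-800 (-3.52 to -2.18; adjusted p = 1.92e-05). It ranged from -3.05 to -2.27 when single libraries were left out. The cycling, red cell and neutrophil markers given above were lower in NP as well, and their part in this and the following tissue differences was not tested.

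Among the INK4 genes, Cdkn2b (p15, ENSMUSG00000073802, chromosome 4, 89306299 to 89311039) was higher in NP. Its scaled FPKM was 5.11, 5.33, 7.42, 6.07 and 5.52 in the NP vehicle libraries and 6.95, 6.88, 7.04, 7.09 and 5.87 in the NP MDL-800 libraries, in the library order given above. The AF values were 1.95, 2.46, 2.83, 2.01 and 1.16 in vehicle and 1.98, 1.51, 1.29, 2.11 and 1.24 under MDL-800. The lowest NP library was above the highest AF library. The log2 difference was 1.18 in vehicle (95% interval 0.81 to 1.54; limma adjusted p = 0.000165) and 1.57 under MDL-800 (1.31 to 1.84; adjusted p = 2.62e-06), or 2.83-fold and 4.16-fold higher in NP.

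Cdkn2c (p18, ENSMUSG00000028551, chromosome 4, 109660876 to 109667189) lay on the other side. Its scaled FPKM was 13.6, 13.1, 11.5, 9.98 and 13.1 in NP vehicle and 9.77, 8.40, 13.0, 7.81 and 11.9 in NP MDL-800. AF libraries held 28.1, 26.8, 22.1, 20.5 and 22.9 in vehicle and 22.5, 22.1, 31.3, 20.9 and 35.7 under MDL-800. The tissues did not overlap. The log2 difference was -0.92 in vehicle (SE 0.12; limma adjusted p = 0.0001) and -1.29 under MDL-800 (SE 0.18; adjusted p = 0.000119), and with the GC trend removed the first was -0.51 (adjusted p = 0.0086).

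Cdkn2d (p19, ENSMUSG00000096472, chromosome 9, 21288410 to 21291407) varied widely in AF. Its scaled FPKM was 5.77, 7.26, 10.6, 9.41 and 13.6 in NP vehicle and 9.85, 10.4, 9.21, 11.4 and 12.2 in NP MDL-800. In AF it was 41.0, 39.4, 25.7, 12.0 and 36.5 in vehicle and 34.0, 16.4, 39.6, 20.8 and 51.2 under MDL-800. AF vehicle library 12 fell within the NP vehicle range, whereas the MDL-800 groups did not overlap. The log2 difference was -1.56 in vehicle (SE 0.33; limma adjusted p = 0.002) and -1.42 under MDL-800 (SE 0.27; adjusted p = 0.000853).

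Cdkn2a (p16Ink4a and p19Arf, ENSMUSG00000044303, chromosome 4, 89274471 to 89294653), the gene most used as a mark of senescent cells, was near the lower limit of these data. The row of the table joins both products, whose transcripts share later exons, so p16Ink4a and p19Arf cannot be told apart. The scaled FPKM was 0.300, 0.371, 0.759, 1.13 and 0.375 in NP vehicle and 0.985, 1.05, 1.24, 1.07 and 0.443 in NP MDL-800. In AF libraries the values were 0.397, 0.579, 0.343, 0.285 and 0.207 in vehicle and 0.136, 0.147, 0.267, 0.964 and 0.930 under MDL-800. At the estimated depth these values correspond to between 1.9 and 16 fragments per library, and exactly 5 of 20 libraries reached the 1 FPKM that the filter asks for, 4 of NP and 1 of AF. The gene was therefore tested mainly through NP, where it was higher, and the calls below are given as dependence on processing and not as support for a difference. All groups overlapped. The log2 difference between tissues was 0.20 in vehicle (95% interval -0.15 to 0.55; limma adjusted p = 0.3087) and 0.42 under MDL-800 (-0.02 to 0.87; adjusted p = 0.086), on a scale whose added 1 shrinks changes of so low a gene. The call depended on processing: with the GC trend removed it was 0.60 in vehicle (adjusted p = 0.0073) and 0.58 under MDL-800 (adjusted p = 0.0133). Under MDL-800 it was also called with quantile normalization (0.77, adjusted p = 0.0059), with all 4 groups in 1 fit (0.42, adjusted p = 0.0495), and without NP MDL-800 library 22 (0.53, adjusted p = 0.0416), AF MDL-800 library 29 (0.54, adjusted p = 0.0363) or AF MDL-800 library 30 (0.53, adjusted p = 0.0389).

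The CIP/KIP genes Cdkn1a and Cdkn1b did not differ between tissues beyond their spread. Cdkn1c, of the same family but not among the 10 genes, was called higher in NP in vehicle and is given below. Cdkn1a (p21, ENSMUSG00000023067, chromosome 17, 29090976 to 29100727) had 12.5, 24.9, 43.7, 38.2 and 26.1 scaled FPKM in NP vehicle and 30.5, 45.2, 30.7, 38.8 and 23.3 in NP MDL-800. Its AF values were 57.3, 23.6, 53.3, 42.3 and 34.8 in vehicle and 43.4, 50.4, 42.9, 29.9 and 23.2 under MDL-800. All 4 groups overlapped, and the range of 12.5 to 57.3 over the 20 libraries lay mostly within groups. The log2 difference between tissues was -0.57 in vehicle (95% interval -1.30 to 0.15; limma adjusted p = 0.1641) and -0.15 under MDL-800 (-0.65 to 0.35; adjusted p = 0.5898), the latter 0.21 with the GC trend removed. A gene on the opposite strand (AC167363.2) shares 273 exon bases with Cdkn1a, and whether counting used strand is not given in the sources used here. Cdkn1b (p27, ENSMUSG00000003031, chromosome 6, 134920401 to 134925513) was the highest and one of the steadiest of the 10 genes, from 36.6 to 59.2 scaled FPKM with a median of 45.8 over the 20 libraries. Its log2 difference between tissues was 0.05 in vehicle (-0.18 to 0.29; adjusted p = 0.7123) and 0.18 under MDL-800 (-0.13 to 0.49; adjusted p = 0.2782). It was called higher in NP only with the GC trend removed (0.28, adjusted p = 0.0457, and 0.49, adjusted p = 0.0097), and its sign in vehicle turned without scaling (-0.02).

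In the p53 pair, Trp53 differed between tissues and Mdm2 was not called. Trp53 (ENSMUSG00000059552, chromosome 11, 69580359 to 69591873) had 14.4, 15.1, 12.4, 15.3 and 17.9 scaled FPKM in NP vehicle and 15.7, 13.6, 18.7, 14.3 and 19.1 in NP MDL-800. AF libraries had 34.9, 27.2, 21.7, 21.1 and 28.9 in vehicle and 27.1, 23.2, 34.2, 28.2 and 41.5 under MDL-800. The tissues did not overlap. The log2 difference was -0.78 in vehicle (SE 0.15; limma adjusted p = 0.0011) and -0.86 under MDL-800 (SE 0.16; adjusted p = 0.000707), and with the GC trend removed -0.37 (adjusted p = 0.0289) and -0.48 (adjusted p = 0.0132). Its processed pseudogene Trp53-ps was listed at 0 in all libraries. Mdm2 (ENSMUSG00000020184, chromosome 10, 117688875 to 117710758) had the narrowest range of the 10 genes relative to its level, from 20.7 to 32.2 with a median of 26.3. Its log2 difference was -0.02 in vehicle (95% interval -0.27 to 0.23; limma adjusted p = 0.8814) and -0.06 under MDL-800 (-0.26 to 0.14; adjusted p = 0.5811). That sign turned with quantile normalization (0.14 and 0.11) and with the GC trend removed (0.26, adjusted p = 0.0595, and 0.30, adjusted p = 0.0176), and in vehicle also with scaling to the protein-coding sum (0.02).

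Rb1 (ENSMUSG00000022105, chromosome 14, 73183673 to 73325822) was lower in NP. Its scaled FPKM was 20.5, 18.1, 17.6, 18.5 and 19.7 in NP vehicle and 17.9, 18.3, 15.7, 17.0 and 20.0 in NP MDL-800. Across AF it was 31.1, 33.9, 31.0, 24.6 and 32.7 in vehicle and 27.9, 20.8, 41.0, 24.3 and 44.1 under MDL-800. The lowest AF library, MDL-800 library 27, was just above the highest NP libraries of both treatments. The log2 difference was -0.66 in vehicle (SE 0.10; limma adjusted p = 0.000258) and -0.74 under MDL-800 (SE 0.19; adjusted p = 0.0061; -0.47 and 0.0448 with the GC trend removed). Its exons share 488 bases with Rcbtb2 on the opposite strand (14.0 to 22.7 scaled FPKM) and 408 bases with Lpar6 (0.212 to 3.22).

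In vehicle, 5 of the 10 genes did not overlap between tissues, where 41.0% of all genes tested did not, and under MDL-800 6 of 10 did not, where 49.1% did not. FPKM is per length, so levels of different genes are set side by side here, but only roughly. GC content ran from 41.2% (Rb1) to 60.2% (Cdkn2a) among the 10 genes. The part of GC content and of shared exon bases in these levels was not tested. In NP vehicle the order of group means ran from Cdkn1b (46.0 ± 6.36), Cdkn1a (29.1 ± 12.2), Mdm2 (26.3 ± 3.65) and Rb1 (18.9 ± 1.18) through Trp53 (15.0 ± 1.97), Cdkn2c (12.3 ± 1.50) and Cdkn2d (9.34 ± 3.05) to Cdkn2b (5.89 ± 0.924), Lmnb1 (4.76 ± 1.96) and Cdkn2a (0.588 ± 0.354), all SD with n = 5. In AF vehicle Cdkn1b (44.2 ± 3.63) and Cdkn1a (42.3 ± 13.7) again led. Cdkn2d (30.9 ± 12.1), Rb1 (30.6 ± 3.61), Lmnb1 (29.9 ± 10.3), Trp53 (26.8 ± 5.69), Mdm2 (26.6 ± 2.85) and Cdkn2c (24.1 ± 3.23) followed, above Cdkn2b (2.08 ± 0.629) and Cdkn2a (0.363 ± 0.140). In AF vehicle each neighbouring pair from Cdkn1b to Cdkn2c in this order differed by less than the SD of either gene. For each of the 6 called genes the 4 groups ordered by tissue, and the 2 treatments of a tissue, neighbours in that order, did not differ beyond their spread.

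**Figure D2:**
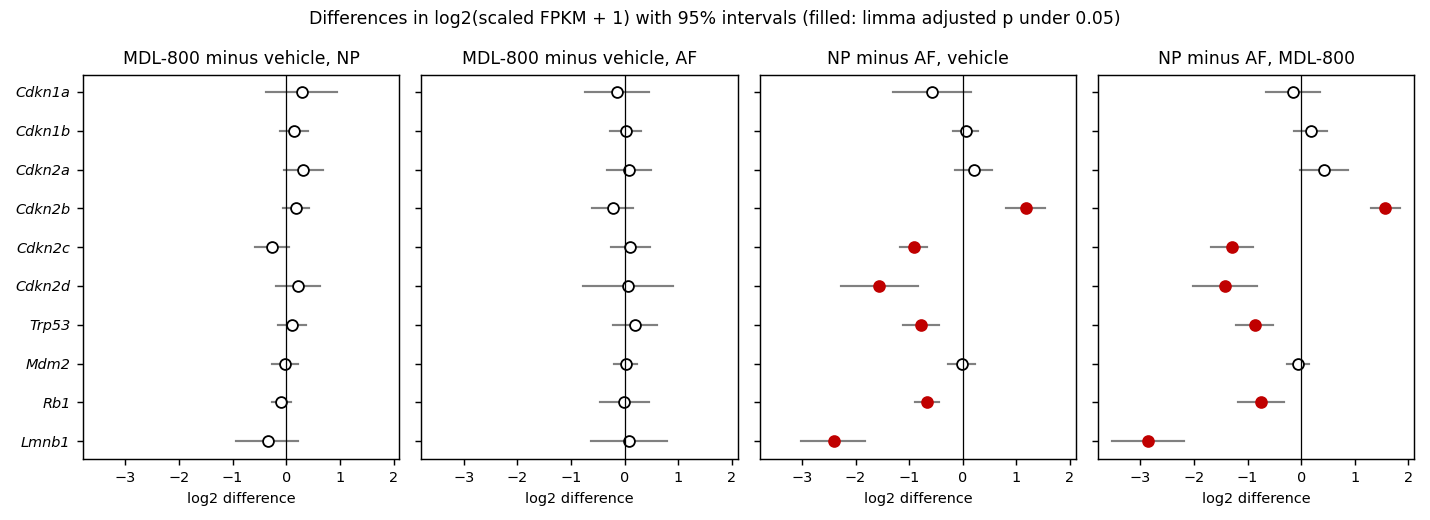
Differences in log2(scaled FPKM + 1) (x axes) of the 10 genes in 4 comparisons, MDL-800 minus vehicle in each tissue and NP minus AF in each treatment. Points are limma estimates, lines are 95% intervals, and filled points have an adjusted p under 0.05. Only the tissue panels hold filled points, from -2.85 (Lmnb1) to 1.57 (Cdkn2b), and the treatment intervals all include 0.

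The treatment comparison asked whether 6 months of MDL-800 altered these transcripts in old discs. In NP, all 10 genes overlapped between treatments (4.50% of all genes tested did not overlap), 0 of the 10 was called (limma adjusted p from 0.4383 to 0.9626), and 0 had an unadjusted p under 0.05. Over all genes 41 (0.250%) were called and 2311 had an unadjusted p under 0.05, and without single libraries that count of 41 lay between 2 (vehicle library 3 or MDL-800 library 22) and 189 (vehicle library 6), each of the 10 omissions moving it by over 1.5 times. The estimates for the arrest genes were 0.31 for Cdkn2a (95% interval -0.05 to 0.68; limma adjusted p = 0.4383), 0.29 for Cdkn1a (-0.38 to 0.95; adjusted p = 0.7283), 0.18 for Cdkn2b (-0.06 to 0.42; adjusted p = 0.4885), 0.15 for Cdkn1b (-0.11 to 0.41), 0.21 for Cdkn2d (-0.20 to 0.63) and -0.26 for Cdkn2c (-0.58 to 0.05; adjusted p = 0.4495). Those of Trp53, Mdm2, Rb1 and Lmnb1 were 0.11 (-0.16 to 0.37), -0.02 (-0.26 to 0.22), -0.09 (-0.26 to 0.09) and -0.35 (-0.93 to 0.22). Of the NP MDL-800 libraries, 4 of 5 had more Cdkn2a than 4 of the 5 vehicle libraries, and library 22 and vehicle library 5 were the exceptions. Cdkn2a met the filter in 3 NP MDL-800, 1 AF MDL-800, 1 NP vehicle and 0 AF vehicle libraries, so mainly through treated libraries. NP libraries held an estimated 3.9 to 16 of its fragments in vehicle and 6.1 to 15 under MDL-800. Its estimate and this library count are therefore no support for a treatment effect. How a library's values varied with the GC content of genes moved with treatment in NP, where the slope was -0.28 to -0.01 in vehicle and 0.02 to 0.09 under MDL-800 (log2 per 10 percentage points; exact two-sided permutation test, p = 0.0079). With that trend removed, 8 of the 10 estimates moved by over 1.5 times or turned: Cdkn2a was -0.03, Mdm2 0.06, Rb1 0.01, Cdkn2b 0.03, Cdkn2d 0.07, Trp53 0.06, Cdkn1b 0.25 and Cdkn2c -0.51, and 0 of the 10 was called. Single libraries moved Cdkn1a most: it was 0.03 without vehicle library 1 and 0.46 without vehicle library 3. The omissions gave 0.07 to 0.35 for Cdkn2d, 0.04 to 0.17 for Trp53, 0.10 to 0.23 for Cdkn1b and -0.50 to -0.18 for Lmnb1. T, Krt19 and Krt8 were higher in each NP MDL-800 library than in any NP vehicle library, as given above. The mean over the list of 10 NP markers that holds them differed by 0.13 (exact permutation test, adjusted p = 0.1758). These 3 genes therefore do not stand for the list. The part of these genes in the estimates was not tested.

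In AF, all 10 genes again overlapped (0.226% of all genes did not), 0 of the 10 was called (limma adjusted p = 1 for each) and 0 had an unadjusted p under 0.05, as 0% of all genes was called and 270 had an unadjusted p under 0.05. The estimates lay between -0.22 for Cdkn2b (95% interval -0.60 to 0.16) and 0.19 for Trp53 (-0.21 to 0.60). The intervals were widest for Cdkn2d (-0.78 to 0.91), Lmnb1 (-0.63 to 0.79) and Cdkn1a (-0.74 to 0.46). Changes within these intervals were not distinguishable from 0. Cdkn2a in AF MDL-800 lay at 0.136 to 0.267 in libraries 25, 27 and 28, an estimated 1.9 to 4.0 fragments, and at 0.930 and 0.964 in libraries 30 and 29, an estimated 15 and 13. Of the marker lists, bone genes were higher under MDL-800 in AF by 0.93 (exact permutation p = 0.0238, adjusted 0.0457), and their part in these estimates was not tested.

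The treatment effect did not differ between tissues for any of the 10 genes (limma adjusted p = 0.9997 for each, 0 with an unadjusted p under 0.05), as 0% of all genes was called and 611 had an unadjusted p under 0.05. The smallest unadjusted p was that of Cdkn2b, whose NP estimate exceeded its AF estimate by 0.40 (95% interval -0.02 to 0.82; unadjusted p = 0.063).

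The CDK and cyclin partners of these inhibitors were mostly lower in NP. The counts of the lists that follow stand beside 55.7% of all genes tested called in vehicle (21.8% higher, 33.9% lower) and 62.8% under MDL-800 (25.6% and 37.2%). Of the 8 D- and E-type cyclins and their kinases, 1 was higher in NP and 6 lower in each treatment, with median log2 differences of -1.13 in vehicle and -1.36 under MDL-800. The exception was Ccnd1, cyclin D1, at 73.9 scaled FPKM in NP and 32.7 in AF in vehicle (log2 difference 1.10, SE 0.30; limma adjusted p = 0.0086). Ccne1, cyclin E1, was at 1.75 and 11.0 (-2.16, SE 0.28; adjusted p = 0.000105), Ccne2 at 2.27 and 9.87 (-1.73; adjusted p = 2.02e-05), and Cdk2, their kinase, at 5.89 and 19.8 (-1.57; adjusted p = 2.54e-05). Of 10 E2F and DP factors, only some of which RB restrains, 1 was higher and 8 lower in each treatment (medians -0.80 and -0.89). E2f2, an activator, was at 4.22 in NP and 36.2 in AF (-2.87, SE 0.30; limma adjusted p = 3.03e-05) and E2f8, an atypical repressor, at 1.87 and 18.7 (-2.92, SE 0.39; adjusted p = 0.000113). E2f5, which works with p130, was the higher one (8.33 and 6.02; 0.43, adjusted p = 0.0205), and without AF vehicle library 13 it was 0.35 with an adjusted p of 0.0504. Of 4 other inhibitors and pocket proteins, 2 were higher and 2 lower in vehicle and 1 and 2 under MDL-800. Cdkn1c (p57; 93.0 and 38.5; log2 difference 1.22, limma adjusted p = 0.000526) and Rbl2 (p130, the pocket protein of resting cells; 51.0 and 32.2; 0.64, adjusted p = 0.0016) were higher in NP vehicle. Cdkn3, a phosphatase that acts on CDK2 (2.76 and 20.6; -2.61, adjusted p = 4.61e-05), and Rbl1, p107 (5.54 and 12.8; -1.06, adjusted p = 0.000142), were lower. Under MDL-800 Cdkn1c was not called and its tissues overlapped (103.2 and 57.8; 0.88, adjusted p = 0.0878), while the difference of its treatment effects was -0.34 (adjusted p = 0.9997).

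The p53 lists were split. Of 12 tested p53 regulators (of 14 listed), 4 were higher and 4 lower in NP in vehicle, and 3 and 5 under MDL-800 (median -0.15 in both). The damage kinases Atr (13.7 and 7.78 scaled FPKM; log2 difference 0.74, limma adjusted p = 0.000141) and Atm (10.8 and 7.19; 0.52, adjusted p = 0.0023) were higher in NP vehicle. The checkpoint kinases Chek1 (1.25 and 5.62; -1.53, adjusted p = 0.000277) and Chek2 (3.05 and 8.93; -1.35, adjusted p = 0.000396) were lower. Of 24 p53 targets, 6 were higher and 8 lower in vehicle and 8 and 9 under MDL-800 (medians -0.13 and -0.14), so 14 and 17 of 24 were called, near the 55.7% and 62.8% of all genes. Perp, a membrane protein of desmosomes (369.3 and 86.2; 2.34, limma adjusted p = 0.000622), and the BH3-only gene Pmaip1, Noxa (12.9 and 5.15; 1.19, adjusted p = 0.0012), were higher in NP. Apaf1, the core of the apoptosome (2.49 and 10.3; -1.69, adjusted p = 0.000134), and Gadd45a, a stress gene (7.87 and 21.6; -1.39, adjusted p = 0.000991), were lower. In NP, 0 of these 24 was called for treatment, 4 having an unadjusted p under 0.05, beside 2311 of all 16383 genes tested.

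Of 13 Polycomb genes and other regulators known to act on the Cdkn2a and Cdkn2b locus, 4 were higher and 5 lower in NP in vehicle and 5 and 6 under MDL-800 (medians -0.03 and 0.12). Ezh2, the methyltransferase of dividing cells, was at 8.45 in NP and 22.7 in AF in vehicle (log2 difference -1.32, limma adjusted p = 3.11e-05) and Ets1, an activator of p16Ink4a, at 6.30 and 28.2 (-1.99, adjusted p = 1.17e-05). Cbx7, a Polycomb reader that represses the locus, was at 25.1 and 16.8 (0.55, adjusted p = 0.0089). Of 11 other genes of the nuclear lamina and envelope, 1 was higher and 5 lower in vehicle and 2 and 5 under MDL-800 (medians -0.37 and -0.18), so 6 and 7 of 11 were called, again near the share of all genes. Lbr, the lamin B receptor, was at 17.4 in NP and 77.5 in AF in vehicle (-2.08, limma adjusted p = 3.37e-05), Tmpo, which encodes the LAP2 proteins, at 43.9 and 88.7 (-0.98, adjusted p = 0.000245), and Sun1, a linker of nucleus and cytoskeleton, at 55.0 and 37.7 (0.54, adjusted p = 0.000406). Of 19 tested secreted factors of senescent cells (of 20 listed), 0 was higher and 15 lower in NP in vehicle and 0 and 16 under MDL-800, with medians of -2.62 and -2.80 beside -0.08 for all genes. Serpine2, a protease inhibitor, was at 12.6 in NP and 470.7 in AF in vehicle (log2 difference -5.35, limma adjusted p = 7.5e-06) and Igfbp5 at 10.5 and 227.2 (-4.37, adjusted p = 9.03e-06). Several of these factors are also products of fibroblasts and myeloid cells, whose markers were lower in NP too, and the part of those cells was not tested. For treatment, 0 genes of any of the 8 lists were called in NP, in AF or between the tissues' effects. At an unadjusted p under 0.05 a list had at most 4 genes in NP, 0 in AF and at most 2 for the difference. In NP these were 4 of 13 Polycomb and other regulators and 4 of 24 p53 targets, beside 2311 of all 16383 genes tested. For the difference they were 2 of the same 13 regulators, beside 611 of 16383. For 7 of the 8 lists the gene with the smallest p in NP is given here, 4 higher and 3 lower under MDL-800, none of them called. The higher ones were Bbc3, the BH3-only gene Puma (3.53 under MDL-800 and 1.56 in vehicle; log2 difference 0.81, limma adjusted p = 0.1018), Cbx7 (35.3 and 25.1; 0.48, adjusted p = 0.1013), Sun2 (75.6 and 56.9; 0.41, adjusted p = 0.1013) and Ccnd3, cyclin D3 (101.9 and 71.3; 0.51, adjusted p = 0.1084). With the GC trend removed Bbc3 was 0.24, Cbx7 0.31, Sun2 0.21 and Ccnd3 0.32, each moved by over 1.5 times. The lower ones were Atr (11.4 and 13.7; -0.25, limma adjusted p = 0.2121), Rbl1 (4.31 and 5.54; -0.30, adjusted p = 0.2869) and E2f6 (8.99 and 10.3; -0.18, adjusted p = 0.458). With the GC trend removed these were -0.15, -0.20 and -0.13. Bbc3, Cbx7 and Atr did not overlap between treatments in NP. By list, 1 of 12 p53 regulators, 1 of 24 p53 targets, 2 of 13 Polycomb and other regulators and 1 of 11 lamina genes did not. Every other list had 0 such genes, beside 4.50% of all genes tested.

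**Figure D3:**
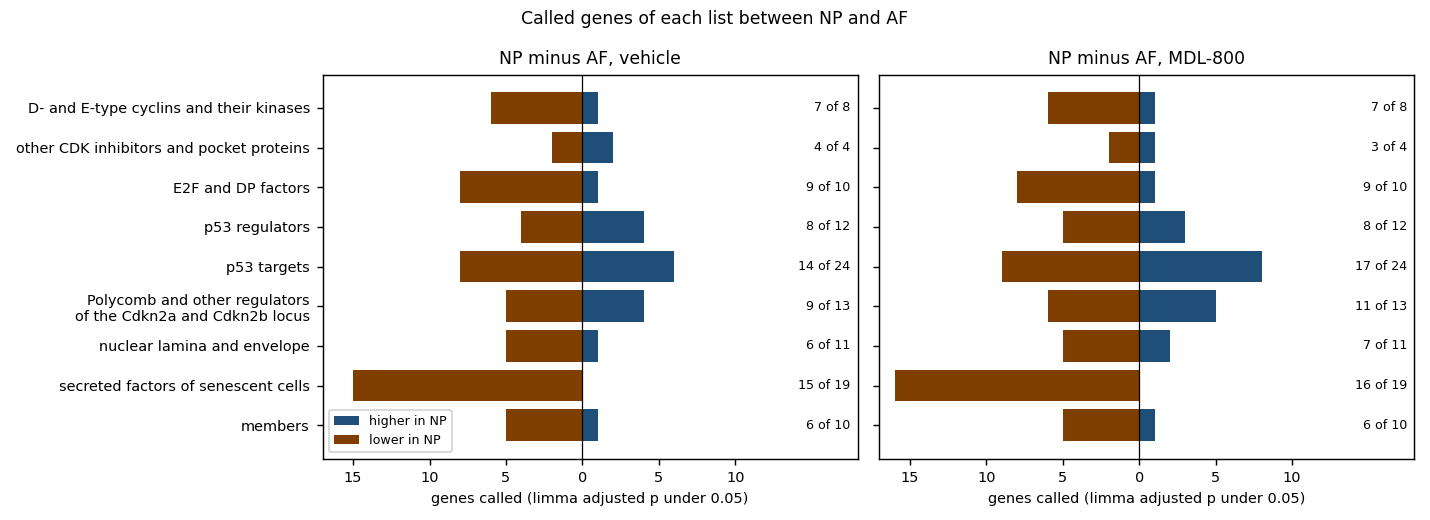
Number of genes called higher (right) or lower (left) in NP than in AF (x axes) for each gene list, in vehicle and in MDL-800 mice, with the number called of the number tested at the right. The secreted factors lie wholly on the lower side (15 and 16 genes), the E2F factors and cyclins mostly so, and the p53 lists on both sides.

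Within AF, several of the 10 genes varied together with markers of cycling and blood-forming cells. Over 10 AF libraries, both treatments together, Lmnb1 correlated with the mean of the 18 cycling markers with Pearson's r = 0.97 (permutation p = 1e-05) and Spearman's rho = 0.93 (permutation p = 0.00033), and Cdkn2d with r = 0.95 (permutation p = 1e-05) and rho = 0.99 (permutation p = 2e-05). The adjusted permutation p over 80 such relations was 0.0004 for both r, and without the 2 libraries farthest from the median of the markers r was 0.97 and 0.96. For Rb1, Cdkn2c, Trp53 and Cdkn1b, r was 0.93, 0.91, 0.90 and 0.88 (rho 0.92, 0.99, 0.87 and 0.76; adjusted permutation p of r 0.0017, 0.00096, 0.0034 and 0.0067), and without the 2 farthest libraries 0.91, 0.84, 0.78 and 0.80. The rho of Cdkn1b did not pass adjustment (permutation p = 0.0151, adjusted 0.0551). Mdm2 ran the other way without passing (r = -0.69, rho = -0.70; adjusted permutation p = 0.0859 and 0.0912), and Cdkn2b did not follow these markers (r = -0.39, adjusted permutation p = 0.4435). Neutrophil markers followed Lmnb1 (r = 0.96, rho = 0.99) and Trp53 (r = 0.94, rho = 0.90), and red cell markers followed Cdkn1b (r = 0.97, rho = 0.94), with adjusted permutation p of r of 0.00053, 0.0011 and 0.0006. By r, 6 of the 10 genes passed with cycling markers in AF, 5 with red cell and 5 with neutrophil markers and 3 with B and plasma cell markers. Of all 16383 genes tested, 6.13%, 3.93%, 15.6% and 4.09% had an r of either sign as large as the lowest that passed among the 10 genes (0.88, 0.85, 0.77 and 0.78 in size). The median size of r with the cycling markers was 0.89 over the 10 genes and 0.45 over all genes. In NP 1, 2, 1 and 1 did, where 2.98%, 4.65%, 4.68% and 1.53% of all genes reached the lowest passing r. There Lmnb1 had r = 0.88 with the cycling markers (rho = 0.75; adjusted permutation p = 0.0039 and 0.0565; r = 0.80 without the 2 farthest libraries). The part of each cell type in these relations was not tested.

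**Figure D4:**
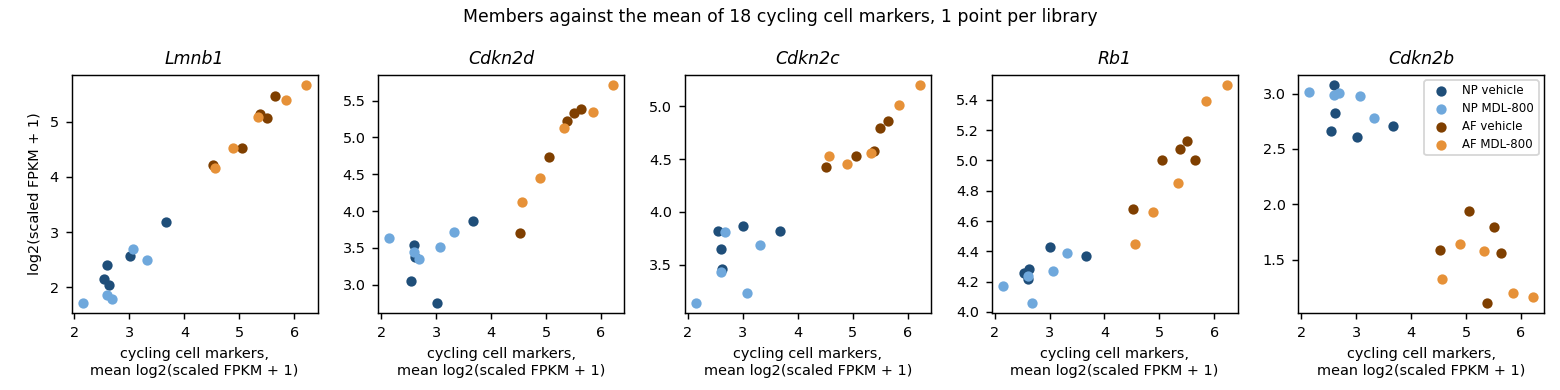
Log2(scaled FPKM + 1) of 5 of the genes (y axes) against the mean of the same measure over 18 markers of cycling cells (x axes), a point per library, coloured by group. Lmnb1, Cdkn2d, Cdkn2c and Rb1 climb with the markers among the AF libraries (r = 0.97, 0.95, 0.91 and 0.93), and Cdkn2b is high in NP, where the markers are low.

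The genes whose pattern was most like each of the 10 were ranked by Pearson's r over the 20 libraries after group means were taken off, among tested genes with a mean of at least 5 scaled FPKM. For Lmnb1 they were Mcm3 (0.97), itself among the cycling markers, Incenp (0.96) and Lbr (0.96). For Rb1 they were Cpox, Tmpo and Rrm1 (0.94 each), and for Cdkn2d U2af2 (0.95), Gpx1 (0.94) and Ppp6r1 (0.94). For Trp53 they were Sh3bgrl3, Vrk1 and Prr13 (0.90 each), for Cdkn2c Uros (0.88), Sec14l2 (0.86) and Gid8 (0.85), for Cdkn1a Pamr1 (0.86), Cers5 (0.85) and Alg10b (0.84), and for Cdkn1b Fam213a (0.86), Zfp367 (0.84) and Ptdss2 (0.83). For Cdkn2b they were Id4 (0.85), Saraf (0.83) and Car9 (0.83), for Mdm2 3110043O21Rik (0.85), B230219D22Rik (0.85) and Klhl28 (0.84), and for Cdkn2a, at its few fragments, Samm50 (0.84), Romo1 (0.74) and Uqcr10 (0.73). These values describe 20 libraries that share tissue makeup and carry no test.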

How the data were processed

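Per the labels' protocols, tissues were dissected into a stabilising solution, and stranded total RNA libraries were made from 50 ng of input RNA, depleted of ribosomal RNA, with 14 PCR cycles. STAR 2.7.11b and the build mm10 are named per the submitters' processing notes, and the counter and annotation are not given in the sources used here. The authors deposited 1 table of FPKM values for 51789 genes and 20 libraries, and each column matched 1 sample by name.

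FPKM was divided by a median-ratio factor per library (0.933 to 1.062, over the 11308 genes that every library held at 1 FPKM). The 16383 genes that reached 1 FPKM in 5 or more libraries were tested on log2(scaled FPKM + 1) with limma 3.58.1 (lmFit, eBayes with trend) in R 4.3.3, two-sided, 2 groups per fit, Benjamini-Hochberg over all genes tested, called at an adjusted p under 0.05. The difference between treatment effects was a contrast over all 4 groups. The script was tested on simulated data. Depth was estimated from single-fragment steps in the FPKM of single-exon genes of 400 to 1200 nucleotides below 0.4 FPKM (85.0% to 90.2% of values within 0.25 fragment of a whole step, with 180 to 200 nucleotides taken off each length), so fragment numbers are estimates and cover counting error only. Marker lists were compared with exact permutation tests and correlated with 100000 resamples (Python 3.11.15, scipy 1.17.1).

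Coordinates are from GENCODE M21 on GRCm38, which held 51596 of the identifiers. The 10 genes and all lists were chosen with earlier results of these data known. All 10 genes were named. Of each list the rule took up to 4 called genes per direction and comparison by p, or the first gene per direction where none was called, and the text gives a part of these; 1 result is not reported here. Alternatives were another pseudocount, filter, scaling, fit, prior, GC correction and the omission of each library.

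The table's header row gives the same numbers to NP and AF columns (5 in vehicle, 3 under MDL-800), and the labels do not say what they mean. Same-number libraries deviated together in 3 of 8 pairs (r over 0.1; range -0.178 to 0.285). A pair with different numbers, NP vehicle library 6 and AF vehicle library 8, reached 0.327. These r therefore cannot tell whether a shared number marks a shared mouse. Libraries were not treated as paired, and a fit with the numbers as a block is given at the end.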

Additional observations from a re-analysis of the deposited data

Results flagged for a closer look

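Of 40 groups of 5 libraries (10 genes in 4 groups), 2 held a value far from the other 4 by Dixon's criterion (gap over range above 0.71), and chance alone gives about 1 in 20. Both came from NP MDL-800 library 22. Its Cdkn2b level was 5.87 scaled FPKM, where the other libraries of the group lay at 6.88, 6.95, 7.04 and 7.09 (gap over range 0.828). Its Mdm2 level was 20.7, where the others lay at 26.5, 26.6, 27.8 and 27.9 (0.806). The Cdkn2b level was still above every AF library.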

How the results depend on the processing

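The 6 called tissue differences kept direction and threshold in each treatment under every alternative and omission run. Over these, Lmnb1 ranged from -3.16 to -2.01, Cdkn2b from 1.06 to 2.02, Cdkn2d from -1.86 to -1.11, Cdkn2c from -1.38 to -0.51, Trp53 from -0.96 to -0.37 and Rb1 from -0.91 to -0.47 (log2, NP minus AF, both treatments). The filter at 5 FPKM removed Cdkn2a.

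The number of genes called for NP treatment moved from 41 to 16 without the filter, 81 at 5 FPKM, 18 without scaling, 12 with the protein-coding sum, 4 with all 4 groups in 1 fit, 18 without the trend and 27 with the GC trend removed. Leaving out a library gave 2 to 189, and each of the 10 omissions moved it by over 1.5 times. In AF, and for the difference of effects, omissions gave 0 to 1. The cause was not tested.

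These signs turned. With the GC trend removed, NP treatment gave Cdkn2a -0.03, Mdm2 0.06, Rb1 0.01 and Kat5 -0.01, AF treatment gave Cdkn2a -0.02 and Rb1 0.01, and the difference of effects gave Cdkn2a -0.02, Mdm2 0.03 and Rb1 0.00. In the same setting the tissue difference was 0.26 for Mdm2 and 0.04 for Banf1 (from a called -0.37) in vehicle, and 0.30 for Mdm2 (adjusted p = 0.0176, now called) and 0.21 for Cdkn1a under MDL-800. Quantile normalization gave Mdm2 0.14 and 0.11, no scaling gave Cdkn1b -0.02 in vehicle, and the protein-coding sum gave Mdm2 0.02 in vehicle and Cdkn1b and Mdm2 -0.01 each for AF treatment.

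Omissions turned these signs. For AF treatment the ranges were -0.32 to 0.02 for Cdkn1a, -0.06 to 0.09 for Cdkn1b, -0.02 to 0.17 for Cdkn2a, -0.00 to 0.18 for Cdkn2c, -0.23 to 0.28 for Cdkn2d, -0.02 to 0.07 for Mdm2, -0.14 to 0.13 for Rb1, -0.09 to 0.29 for Lmnb1, -0.26 to 0.02 for Ccnd2, -0.15 to 0.02 for E2f5 and -0.15 to 0.09 for Ezh2. For NP treatment they were -0.07 to 0.06 for Mdm2, -0.04 to 0.09 for Rbl2 and -0.02 to 0.13 for Tfdp2. Between tissues they were -0.03 to 0.09 for Cdkn1b and -0.10 to 0.03 for Mdm2 in vehicle, and -0.09 to 0.01 for Mdm2 under MDL-800. For the difference of effects they were -0.06 to 0.44 for Cdkn2d, -0.19 to 0.02 for Trp53, -0.09 to 0.04 for Mdm2, -0.21 to 0.05 for Rb1, -0.03 to 0.10 for E2f3 and -0.02 to 0.14 for Ep300.

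Of the listed genes, 41 of 939 refits in vehicle and 16 of 964 under MDL-800 lost the threshold. By omissions, Bmi1, Kdm6b, Trp53bp1, Banf1 and E2f5 lost it in vehicle.

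With the header numbers as a replicate block (chosen after seeing the data), 8783 genes were called between tissues in vehicle and 7858 under MDL-800, where the same libraries without the block gave 8303. Same-number pairs correlated at -0.178 to 0.285, and the block changed no call of the 10 genes.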
